A study of Mus musculus with 6 samples.

Results

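The genes described here are 9 receptors, bridging ligands and adaptors through which cells recognise and engulf dying cells and debris: Mertk, Axl, Tyro3, Megf10, Cd36, Gas6, Pros1, Mfge8 and Gulp1. They were read by every probe set that the array annotation assigned to exactly 1 of these symbols, which gave 16 of the 45037 probe sets tested, and 9 of 18193 genes. A probe set is a group of short probes that together report 1 transcript region. Expression was measured on 6 mouse arrays, each with RNA from green fluorescent cells that were pooled from about 15 animals and sorted from the grey matter of the somatosensory cortex. The 3 reactive samples came from TgN(hGFAP-EGFP) GFEA mice, whose green fluorescent protein is under a human GFAP promoter. Their cortex had received a stab wound, with a depth of 0.7 mm and a length of 1 to 1.2 mm, 5 days earlier. The 3 non-reactive samples were from Tg(Aldh1l1-eGFP)OFC789Gsat mice without injury, whose fluorescence is driven by Aldh1l1 regulatory sequences. All mice were FVB/N, aged 2 to 3 months, and their sex was not determined. Injury and reporter line changed together between the groups, so their parts in any difference cannot be told apart.

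Phagocytosis of dying cells starts when phosphatidylserine appears on their surface. Gas6 and protein S, the product of Pros1, bind this lipid and bridge it to the receptor tyrosine kinases Tyro3, Axl and Mertk, known together as the TAM receptors. Mfge8 bridges the same lipid to integrins of the alpha v family, Megf10 is a transmembrane engulfment receptor, and Gulp1 is a cytoplasmic adaptor of such receptors. Cd36 is a scavenger receptor for oxidised lipids and thrombospondins. In healthy brain tissue astrocytes are known to take up synapses through Mertk and Megf10, while microglia also use TAM receptors.

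Mertk and Mfge8 were the members that changed past the threshold and they did so in the same direction, so the 250 bases upstream of their start sites are shown, 5′ to 3′ on the gene's strand, from RefSeq sequences of mouse build GRCm38.p6. The Mertk stretch lies on the plus strand at chr2:128698665-128698914 and the Mfge8 stretch on the minus strand at chr7:79149061-79149310. Capitals mark GC boxes, the motif GGGCGG read on either strand.
Mertk: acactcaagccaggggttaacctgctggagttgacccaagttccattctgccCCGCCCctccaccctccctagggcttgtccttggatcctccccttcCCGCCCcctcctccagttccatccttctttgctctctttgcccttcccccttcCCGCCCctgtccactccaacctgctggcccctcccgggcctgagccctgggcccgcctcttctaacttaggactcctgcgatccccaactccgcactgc
Mfge8: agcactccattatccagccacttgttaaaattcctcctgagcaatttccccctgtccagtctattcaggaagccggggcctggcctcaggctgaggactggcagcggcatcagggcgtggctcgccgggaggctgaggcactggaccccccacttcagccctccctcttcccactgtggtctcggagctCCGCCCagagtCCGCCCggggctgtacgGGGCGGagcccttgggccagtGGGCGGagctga
The Mertk stretch held 3 GC boxes, whose first bases lie 198, 152 and 99 bases upstream of the start site. The Mfge8 stretch held 4, at 61, 50, 33 and 12 bases upstream. The promoter table held 8 of the 9 genes, all but Megf10, and each of these 8 had at least 1 GC box, including genes that did not pass the test. Among 32851 upstream stretches of the same length, 32.7% held one. The GC content was 63.6% for Mertk and 65.2% for Mfge8, against a median of 52.4% for all stretches. On either strand, TATAAA was found in 0 of the 8 promoters (12.4% of all stretches) and the AP-1 motif TGANTCA also in 0 (6.7%). The STAT motif TTCNNNGAA was found in 1, Pros1 (7.0%), CCAAT in 1, Cd36 (33.8%), and the E-box CANNTG in 4, among them Mfge8 (66.2%). In these 8 promoters no match of one motif overlapped a match of another. These matches describe letters in the stretch and do not show binding.

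Values are log2 expression values, so a difference of 1 is a doubling. The array medians lay between 4.65 and 4.73. Correlations between arrays were 0.901 to 0.921 among reactive arrays, 0.95 to 0.963 among non-reactive arrays and 0.889 to 0.93 across groups. The difference between 3′ and 5′ control probe sets, a sign of RNA length and amplification, was 3.85 to 4.64 (reactive) against 4.77 to 5.74 (non-reactive) for Gapdh, and 2.53 to 4.27 against 4.48 to 5.37 for Actb. Its part in the results was not tested. The labels call the samples biological replicates made of pooled animals, so the p-values measure the spread between pools.

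Of the 16 probe sets, 2 fell in the reactive samples, 0 rose and 14 did not pass an adjusted p of 0.05 (limma, Benjamini-Hochberg over all probe sets). Over all probe sets 0.85% passed: 0.584% fell and 0.266% rose. These calls rest on all arrays: over the whole array 383 probe sets passed, but 57, 173 and 166 without reactive replicate 1, 2 and 3, and 1, 1 and 4 without non-reactive replicate 1, 2 and 3. At an unadjusted p under 0.05 there were 5 of 16, of which 4 were lower and 1 was higher, against 13.2% of all probe sets. The values of the groups did not overlap for 7 probe sets, 4 with all reactive arrays lower (8.08% of all probe sets) and 3 with all reactive arrays higher (12.8%). The median log2 difference was 0.16 over the 16 probe sets and 0.10 over all probe sets. With 1 probe set a gene, the one with the highest mean, the median over the 9 genes was -0.86 against 0.12 over all genes, with 6 genes lower and 3 higher. That median is the value of Gulp1, whose probe set was dim. With a gene's probe sets averaged, the middle value of the 9 genes was that of Gas6, -0.25. Of the 16, 7 had a mean at or below 4.74, the median over all probe sets, where a size is uncertain. They were all 3 of Cd36, all 3 of Gulp1 and 1 of Axl.

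Mertk, the TAM receptor known for clearance of dying cells and for synapse uptake by astrocytes, fell 3.33-fold. Its values were 8.61, 8.52 and 8.79 in reactive replicates 1, 2 and 3, and 10.68, 10.49 and 9.96 in non-reactive replicates 1, 2 and 3. All reactive arrays were below all non-reactive arrays, and the reactive arrays lay close together. The means were 8.64 ± 0.14 and 10.38 ± 0.38 (SD, n = 3), a log2 difference of -1.74 (SE 0.25, 95% interval -2.33 to -1.14, limma adjusted p = 0.0441). Of all probe sets, 2.08% had a lower difference. Mertk had 1 probe set, so no second measurement on the array bears on it.

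Axl, the TAM receptor that binds Gas6 most tightly and is often induced by inflammation, did not pass. At its brighter probe set (1423586_at) the reactive values were 4.50, 4.05 and 4.20 and the non-reactive values 6.29, 4.87 and 5.47. The groups did not overlap, but the reactive values lay below the median probe set, and non-reactive replicate 1 stood above the other arrays. The log2 difference was -1.29 (SE 0.38, 95% interval -2.20 to -0.39, limma adjusted p = 0.222). The other Axl probe set (1438621_x_at), of a type whose probes may match further genes, differed by 0.04 (SE 0.32) at means of 3.19 and 3.15. The mean of both probe sets differed by -0.63, so the size for Axl depended on the probe set.

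Tyro3, the TAM receptor known mainly from neurons and oligodendrocytes, was measured by 2 probe sets of similar level. The values of the brighter one (1425248_a_at) were 5.35, 6.25 and 5.97 in the reactive and 5.78, 4.50 and 5.44 in the non-reactive arrays. The groups overlapped, with a log2 difference of 0.62 (SE 0.40, 95% interval -0.34 to 1.57, limma adjusted p = 0.548). The other (1425249_a_at) differed by 0.20 (SE 0.44) and overlapped as well. The 95% intervals of both probe sets contain 0. They reach over 1 log2 unit upward, and downward to -0.34 for the brighter and -0.86 for the other. So neither a rise nor a fall of Tyro3 can be excluded with 3 arrays a group.

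**Figure D1:**
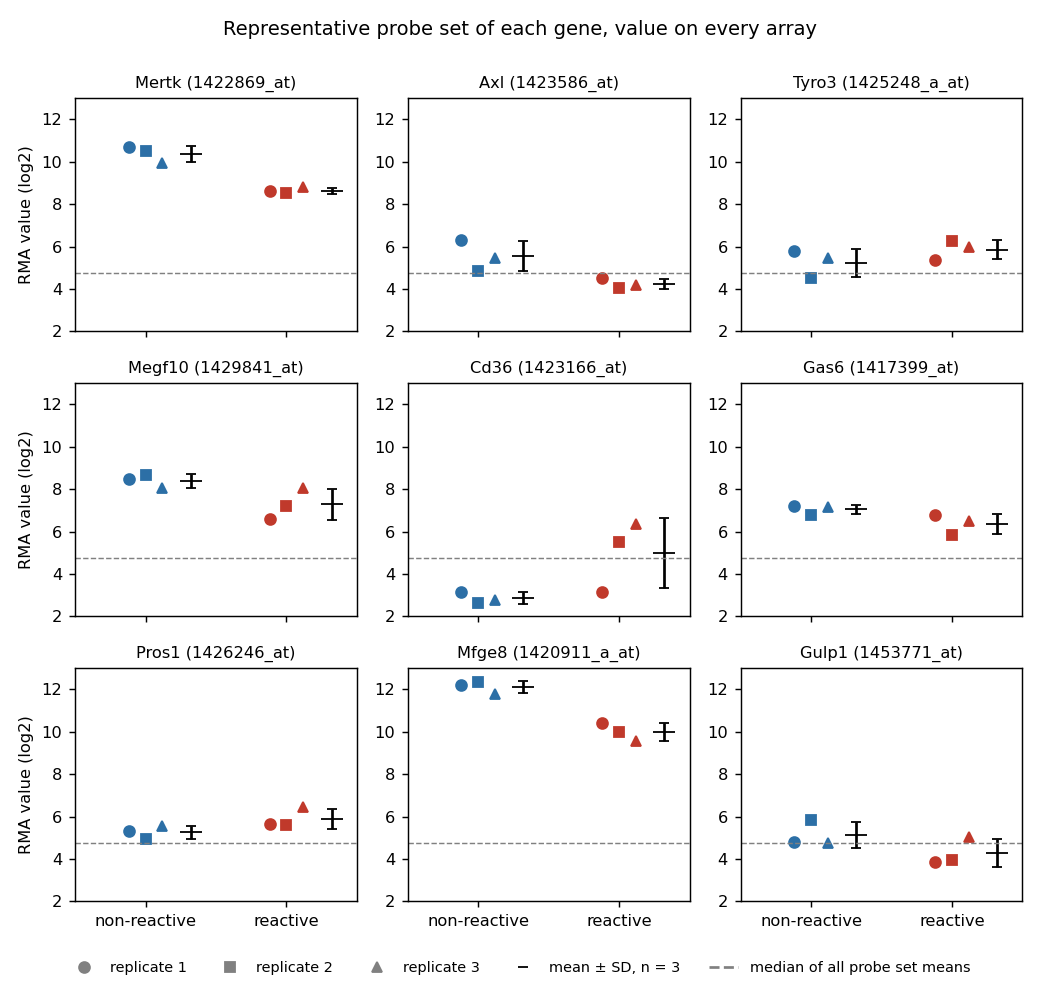
Log2 expression value of the representative probe set of each of the 9 genes (vertical axis) in the 3 non-reactive (blue) and 3 reactive (red) arrays, with a symbol for each replicate, black bars for mean ± SD and a dashed line at 4.74, the median of all probe set means. Mertk and Mfge8 separate the groups far above the line, while Axl, Tyro3, Pros1 and Gulp1 lie near it and Cd36 is above it in 2 reactive arrays.

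Megf10, the engulfment receptor that astrocytes use for synapses, was lower on average but varied among the reactive arrays. Its values were 6.59, 7.20 and 8.06 in the reactive and 8.47, 8.67 and 8.04 in the non-reactive arrays. Reactive replicate 3 lay within the non-reactive range, and the other 2 reactive arrays lay below it. The log2 difference was -1.11 (SE 0.40, 95% interval -2.07 to -0.16) and did not pass (limma adjusted p = 0.313). Without reactive replicate 1 it was -0.77 (adjusted p = 0.449) and without reactive replicate 3 it was -1.50 (adjusted p = 0.122).

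Cd36 ran the other way and differed most among replicates. At its brightest probe set (1423166_at) the reactive values were 3.15, 5.51 and 6.34, and the non-reactive values were 3.17, 2.61 and 2.78. Reactive replicates 2 and 3 were above all non-reactive arrays, and reactive replicate 1 was among them. The log2 difference of 2.14 (SE 0.77, 95% interval 0.31 to 3.98) did not pass (limma adjusted p = 0.313). It was 3.07 without reactive replicate 1 (adjusted p = 0.0555), 1.89 without reactive replicate 2 (0.416) and 1.47 without reactive replicate 3 (0.407). The other Cd36 probe sets, 1450883_a_at and 1450884_at, differed by 0.81 (SE 0.45) and 0.54 (SE 0.25), at values between 2.27 and 4.60 on all 6 arrays. The annotation gives all 3 probe sets the same source sequence, yet the signal above the median probe set appeared in 1 of them.

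Gulp1, the adaptor, was near or below the median probe set. At its brightest probe set (1453771_at) the values were 3.84, 3.95 and 5.04 in the reactive and 4.81, 5.86 and 4.73 in the non-reactive arrays, which overlapped. The log2 difference was -0.86 (SE 0.44, limma adjusted p = 0.465). The other Gulp1 probe sets differed by 0.32 (SE 0.21) and 0.14 (SE 0.46), and the mean of the 3 differed by -0.14. A direction for Gulp1 could not be read at this signal.

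Among the bridging ligands, Mfge8, a secreted protein that astrocytes make in quantity, fell 4.37-fold. Its values were 10.39, 9.98 and 9.56 in reactive replicates 1, 2 and 3, and 12.20, 12.33 and 11.78 in the non-reactive arrays. The groups stood apart by more than 1 log2 unit at their closest arrays, and all 6 values lay far above the median probe set. The means were 9.98 ± 0.42 and 12.11 ± 0.29 (SD, n = 3), a log2 difference of -2.13 (SE 0.29, 95% interval -2.81 to -1.45, limma adjusted p = 0.0387). Of all probe sets, 1.05% had a lower difference. Mfge8 also had 1 probe set.

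Gas6, a vitamin K-dependent ligand of all 3 TAM receptors, did not pass. The brighter probe set (1417399_at) gave 6.78, 5.85 and 6.48 in the reactive and 7.21, 6.80 and 7.15 in the non-reactive arrays. The groups did not overlap, but reactive replicate 1 and non-reactive replicate 2 nearly met. The log2 difference was -0.68 (SE 0.29, 95% interval -1.38 to 0.01, limma adjusted p = 0.386). The dimmer probe set (1459585_at) differed by 0.19 (SE 0.19), with overlapping groups, and the mean of both differed by -0.25.

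Pros1 encodes protein S, an anticoagulant cofactor that is also a ligand of Tyro3 and Mertk. Its values were 5.64, 5.62 and 6.45 in the reactive and 5.32, 4.93 and 5.55 in the non-reactive arrays. The reactive arrays were all higher, by little, and the log2 difference of 0.64 (SE 0.31, 95% interval -0.10 to 1.37) did not pass (limma adjusted p = 0.433).

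**Figure D2:**
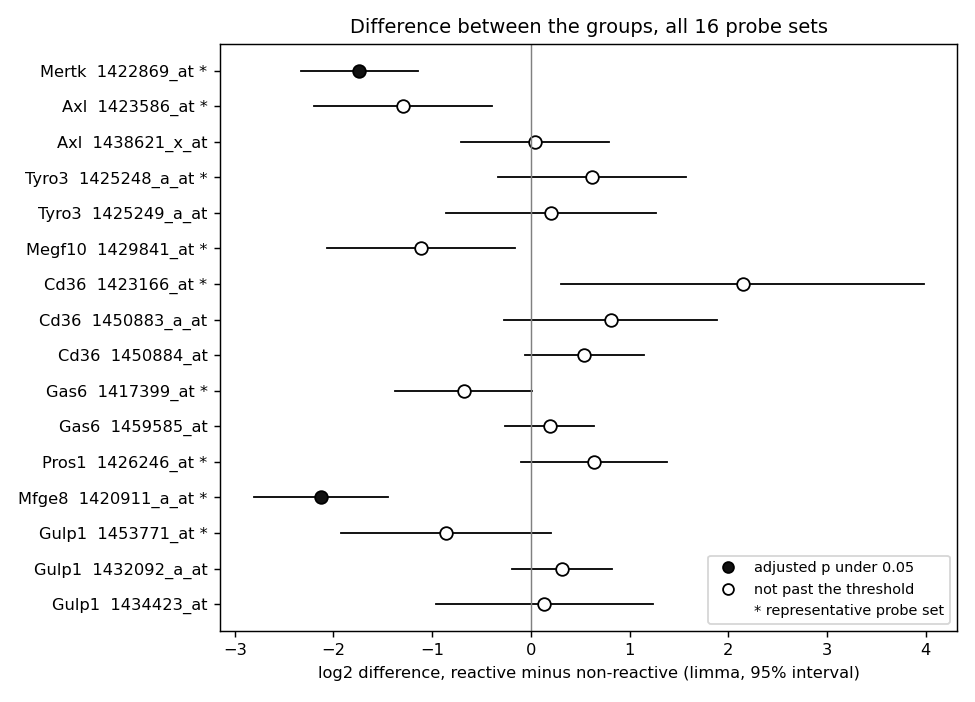
Log2 difference, reactive minus non-reactive, of all 16 probe sets with its 95% interval from limma (horizontal axis). Filled points passed an adjusted p of 0.05, open points did not, and an asterisk marks the representative probe set. Mertk at -1.74 and Mfge8 at -2.13 are the filled points, and secondary probe sets of Axl, Gas6 and Gulp1 lie on the other side of 0 from the representative ones.

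The calls for Mertk and Mfge8 were close to the threshold, although their size was steady. With any 1 array left out, Mertk differed by -1.95 to -1.58 and Mfge8 by -2.34 to -1.92. The limma adjusted p of Mertk was then 0.0965, 0.0899 and 0.0747 without reactive replicate 1, 2 and 3, and 0.135, 0.168 and 0.0839 without non-reactive replicate 1, 2 and 3. That of Mfge8 was 0.0604, 0.08 and 0.0637 without reactive replicate 1, 2 and 3, and 0.134, 0.142 and 0.0973 without non-reactive replicate 1, 2 and 3. So each needed all 6 arrays to pass. With the replicate number as a block the adjusted p was 0.155 for Mertk and 0.111 for Mfge8.

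**Figure D3:**
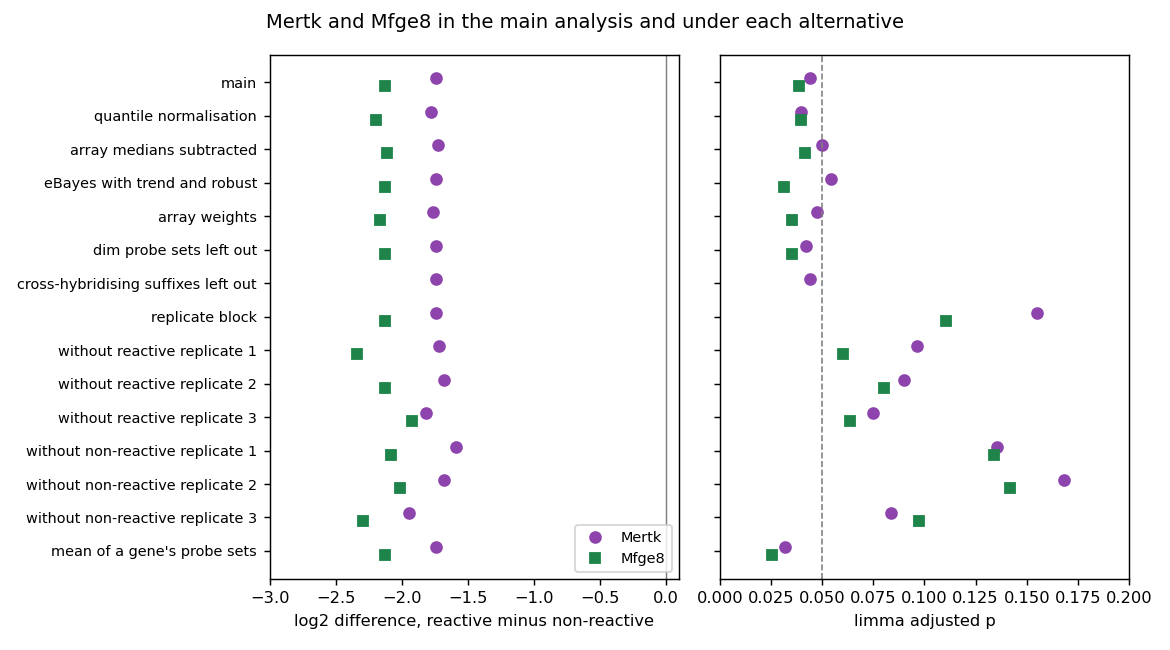
Log2 difference (left) and limma adjusted p (right) of Mertk (circles) and Mfge8 (squares) in the main analysis and under each alternative, with a dashed line at 0.05. The differences stay between -1.95 and -1.58 for Mertk and between -2.34 and -1.92 for Mfge8, and the adjusted p exceeds 0.05 whenever an array is left out; Mfge8 has no value without cross-hybridising suffixes because its probe set carries one.

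The cell type markers moved on the same arrays. In bulk samples, fewer cells of a type and less RNA per cell cannot be told apart. Of 10 astrocyte markers 3 fell, with log2 differences of -2.31 for Sox9, a transcription factor, -1.62 for Slc1a3, a glutamate transporter, and -1.38 for Gja1, a gap junction protein. Gfap, through whose promoter the reactive cells were sorted, rose by 3.12. Aldh1l1, through whose regulatory sequences the non-reactive cells were sorted, differed by -0.57 (SE 0.23, limma adjusted p = 0.366). It was kept among the other 9 markers. The mean level of the 9 astrocyte markers other than Gfap was 9.14 to 9.72 on reactive against 10.74 to 11.11 on non-reactive arrays, a difference of -1.48, and all 9 were brighter than the median probe set. Of 9 measured microglia and macrophage markers, 2 rose (C1qa and Cd68) and all had differences above 0. The bright markers Cx3cr1 and Csf1r differed by 0.04 and 0.42, with overlapping groups. The mean level of the 9 markers was 8.49 to 8.78 on reactive against 6.65 to 7.19 on non-reactive arrays, and 1, Itgam, had a mean below the median probe set. Of 6 monocyte and neutrophil markers, 2 rose (Lyz2 and Plac8, by 5.67 and 3.31), with mean levels of 6.09 to 6.94 against 4.23 to 4.82. Ccr2 and Mpo differed by -0.03 and 0.33, with overlapping groups, so the higher mean level was not shared by every marker. Of the 6 markers, 5 had differences above 0, against 11037 of all 18193 genes. S100a8 and S100a9 had means below the median probe set.

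Set against the mean of the 9 astrocyte markers on the same array, Mertk was no longer separated. Relative to that mean its log2 values were -1.12, -1.02 and -0.34 in the reactive and -0.43, -0.25 and -1.02 in the non-reactive arrays, a difference of -0.26. Mfge8 remained lower, at 0.67, 0.43 and 0.43 against 1.09, 1.60 and 0.81, a difference of -0.65 without overlap. On this scale Megf10 differed by 0.36 and Axl by 0.18 with overlap, and Gulp1 by 0.62 with overlap. Cd36 differed by 3.62, Pros1 by 2.12, Tyro3 by 2.09 and Gas6 by 0.79, all with every reactive array higher. The marker mean itself differed by -1.48, so this scale moves the difference of every gene upward, also that of an unchanged gene. The share of all probe sets without overlap was not computed on this scale. The marker mean includes Aldh1l1, the gene of the non-reactive reporter line. This scale was chosen after the values were seen and carries no test. Its directions for Megf10, Axl, Gas6 and Gulp1 are opposite to those of the deposited scale.

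Members known from other cells were read beside those cells' markers. Of 7 measured endothelial markers 0 passed with limma, also 0 at an unadjusted p under 0.05, and their mean level was 4.81, 4.41 and 5.73 in reactive replicates 1, 2 and 3, against 4.19 to 4.64 in the non-reactive arrays. Pecam1, Cdh5 and Tek had means below the median probe set. Reactive replicate 3, highest in Cd36 and Pros1, was also highest in the endothelial markers and in the monocyte and neutrophil markers. Reactive replicate 2, with Cd36 at 5.51, was the lowest reactive array in both. Among reactive arrays, replicate 3 was also highest in the oligodendrocyte and the pericyte and smooth muscle markers. It was the lowest in the neuron markers and in the astrocyte markers other than Gfap. The microglia and macrophage markers were at 8.49, 8.78 and 8.67 in reactive replicates 1, 2 and 3. Of 7 pericyte and smooth muscle markers 0 passed with limma (2 lower and 1 higher at an unadjusted p under 0.05). These 3 were Pdgfrb at -2.24, Rgs5 at -0.98 and Tagln at 1.33, named after their values were seen. The mean level of the 7 markers was 5.26 to 6.17 against 5.38 to 5.63. Of 7 oligodendrocyte markers 0 passed with limma (5 higher and 1 lower at an unadjusted p under 0.05, the lower one being Mbp at -0.49, named after its values were seen), with mean levels of 10.21 to 10.70 against 8.92 to 9.82, and all lay above the median probe set. The 5 progenitor markers (0 past the threshold with limma, 1 at an unadjusted p under 0.05) were at 7.19 to 7.73 against 6.51 to 7.20. The 8 neuron markers (0 past the threshold with limma, 1 at an unadjusted p under 0.05) were at 7.47 to 9.13 against 8.23 to 8.80. The part of these cells in the members' values was not tested.

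**Figure D4:**
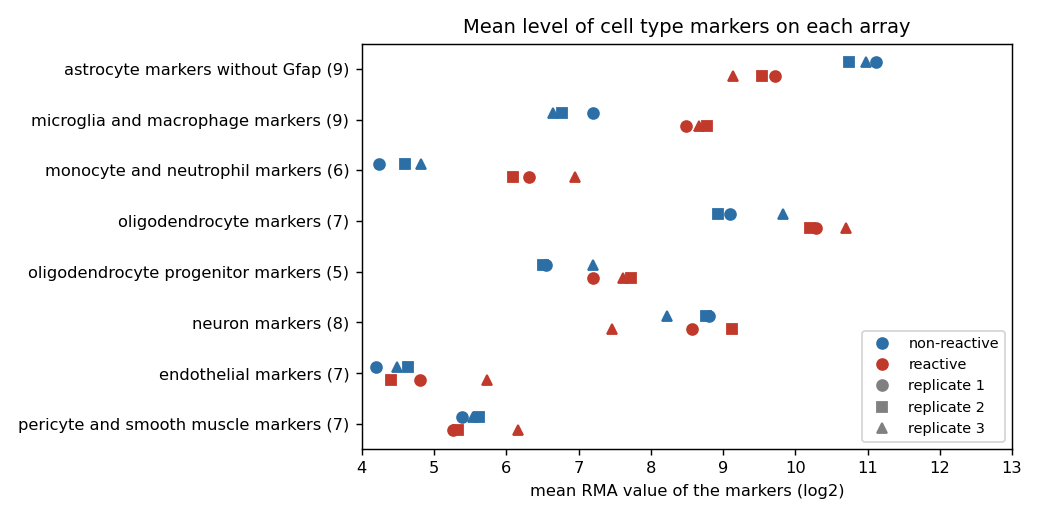
Mean log2 value of the markers of each cell type on every array (horizontal axis), with the number of measured markers in brackets, non-reactive in blue, reactive in red and a symbol for each replicate. Astrocyte markers other than Gfap are lower in all 3 reactive arrays, and the mean levels of the microglia, monocyte and oligodendrocyte markers are higher. Of single markers, Mbp is lower, and Ccr2 and Cx3cr1 are nearly equal between the groups.

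The rest of the engulfment machinery was read through 7 lists with 112 genes, of which 106 were measured. Of these 5 rose and 1 fell, or 5 and 16 at an unadjusted p under 0.05 in the lower and the higher direction. Over all genes 0.39% rose and 0.561% fell. At an unadjusted p under 0.05 with limma, 1297 of all 18193 genes were lower and 1433 higher. With trend and robust moderation 4 rose and 1 fell, all of the same genes but Trem2, and without cross-hybridising suffixes C1qa, C1qb, C1qc and Lgals3 rose and 0 fell with limma (2 lower at an unadjusted p under 0.05). Without reactive replicate 1, C1qa alone of the lists' genes passed. Without reactive replicate 2, B2m, C1qa and Lgals3 passed, and without reactive replicate 3 these 3 and Ptpn11, which was lower. Without non-reactive replicate 1, 2 or 3, 0 passed with limma, where 19, 16 and 16 had an unadjusted p under 0.05. Among 24 other engulfment receptors 1 rose, Trem2, a lipid receptor of microglia, by 2.24 (SE 0.28, limma adjusted p = 0.0341). Trem2 did not pass with trend and robust moderation (limma adjusted p = 0.0511), with the replicate block (0.124) or without any 1 of the 6 arrays (0.0533 to 0.128). Its values were 7.82, 8.70 and 8.15 in the reactive and 5.87, 5.86 and 6.21 in the non-reactive arrays. The list's median difference was 0.39. The microglia and macrophage markers had a higher mean level on the same arrays, given above, and their part in the rises of these lists was not tested. C1qa and Itgam belong both to those markers and to these lists, so the levels set side by side partly hold the same values. Itgav, the alpha v integrin chain that binds Mfge8, differed by -0.58 (SE 0.20, limma adjusted p = 0.291), and Scarb2, a lysosomal relative of Cd36, by -0.27 (SE 0.41). Itgb5 and Itgb3, partner chains of Itgav named here after their values were seen, differed by -0.13 (SE 0.26) and 0.11 (SE 0.30).

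Of 15 measured bridging and opsonin genes 3 rose and 1 fell, with a median difference of 0.25. The complement genes C1qa and C1qc, whose product C1q tags synapses and debris and is made by microglia, rose by 3.76 (SE 0.30) and 3.81 (SE 0.43). C1qb, a further gene of C1q, differed by 1.77 (SE 0.45, limma adjusted p = 0.161) and did not pass. Its brightest probe set carries a cross-hybridising suffix, and without such suffixes another probe set stood for C1qb and rose. Lgals3, a galectin that can also bind Mertk, rose by 5.07 (SE 0.67). Clu, clusterin, a secreted chaperone of astrocytes, fell by 1.89 (SE 0.25), in the same direction as Mfge8. Apoe, a lipid carrier, differed by 0.10 (SE 0.35) and Calr, calreticulin, by 0.18 (SE 0.25), and neither passed. C3 and C4b had no value under a single symbol.

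The signalling genes downstream of the receptors did not pass. Of 29 measured genes 0 passed with limma, 5 had an unadjusted p under 0.05 (2 lower, 3 higher), and the median difference was 0.04. Rac1 and Cdc42, the GTPases that drive the phagocytic cup, differed by 0.09 (SE 0.38) and 0.70 (SE 0.26). Of 11 genes of phosphatidylserine exposure 0 passed with limma, also 0 at an unadjusted p under 0.05. Tmem30a, the subunit that flippases need, differed by -0.58 (SE 0.44) and Ano6, a scramblase, by -0.53 (SE 0.77). The vitamin K cycle prepares Gas6 and protein S for lipid binding. Its list held 7 genes of the cycle and of Gla carboxylation, some of them Gla proteins rather than cycle enzymes. Of these 7, 0 passed with limma and 2 had an unadjusted p under 0.05. The 2 were the reductases Vkorc1 and Vkorc1l1, with differences of 0.95 (SE 0.29, limma adjusted p = 0.238) and 1.18 (SE 0.41, limma adjusted p = 0.296). The list's median of 0.94 is the difference of Mgp, a matrix Gla protein named here after its values were seen, which was at 7.08 in reactive replicate 3 against 4.06 and 3.85 in reactive replicates 1 and 2 and 4.05 on average in the non-reactive arrays. Without reactive replicate 3 the list's median was 0.30.

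Of 12 genes that regulate or shed TAM receptors 0 passed with limma, 2 had an unadjusted p under 0.05, and the median difference was 0.08. Socs3, a feedback inhibitor of cytokine signalling, differed by 2.07 (SE 0.36, limma adjusted p = 0.065), from 8.29 ± 0.69 to 10.36 ± 0.08 (SD, n = 3). Rxrb, a nuclear receptor partner, differed by -0.38 (SE 0.26). Of 8 inhibitory signals 1 rose, B2m, the light chain of MHC class I and mainly known for antigen presentation, by 3.06 (SE 0.29), with a median difference of 0.39 for the list. Ptpn11, a phosphatase, differed by -1.61 (SE 0.29, limma adjusted p = 0.073) and Sirpa, the receptor of the signal Cd47, by 0.06 (SE 0.22).

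**Figure D5:**
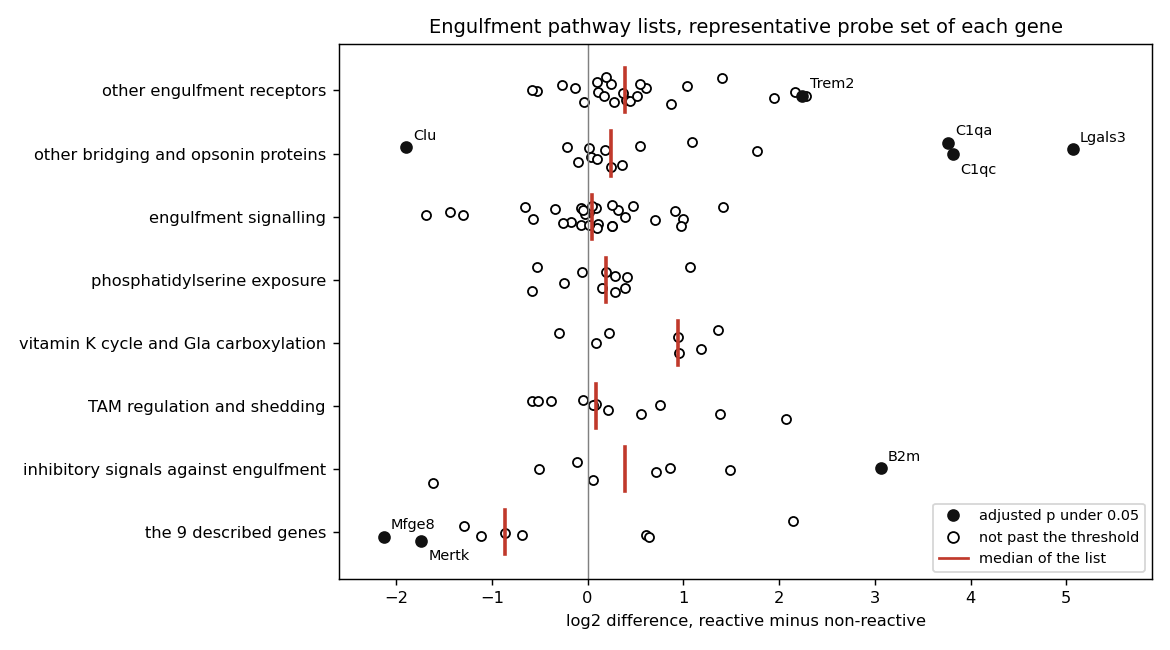
Log2 difference, reactive minus non-reactive, of each measured gene in the 7 pathway lists and of the 9 described genes (horizontal axis). Filled points passed an adjusted p of 0.05, open points did not, and red bars are the medians. The medians run from 0.04 to 0.94 in the lists (the highest, of the vitamin K list, is 0.30 without reactive replicate 3). For the 9 genes the median lies at -0.86, which is the value of Gulp1 at a dim probe set.

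The genes most like each member were found from profiles centred on their own mean over the 6 arrays, among 12105 genes brighter than the median probe set, as the smallest root mean square difference in log2 units. For Mertk these were Swap70 at 0.10 and Grm3, a glutamate receptor of astrocytes, at 0.17, where the Mertk profile itself had a size of 0.90. For Mfge8 they were 2310061I04Rik at 0.11 and Zbtb20, a transcription factor, at 0.13, with a profile size of 1.10. All 4 of these genes fell, with differences of -1.74, -1.89, -2.11 and -2.17. As they were picked for likeness to members that fell, their fall follows from the choice and is no separate result. The nearest genes were Sh3pxd2b at 0.09 and Psme4 at 0.10 for Megf10, Eps8 at 0.18 and Cpq at 0.20 for Axl, and Josd2 at 0.26 and Cxcl16, a chemokine, at 0.27 for Cd36. They were Cpeb3 at 0.09 and Dip2c at 0.11 for Gas6, Snrpc and Mcam at 0.10 and 0.11 for Pros1, Rps19bp1 and Anapc11 at 0.13 for Tyro3, and Adcy6 at 0.16 and Epc1 at 0.18 for Gulp1. Such likeness describes 6 arrays and holds mainly the difference between the groups.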

How the data were processed

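The authors deposited log2 expression values made with RMA, per the submitters' processing notes; its version was not given in the sources used here. Usually RMA combines background correction, quantile normalisation and probe summary, which would hide a change in total RNA per cell and make dim values uncertain. The table held 45101 probe sets, of which 64 controls were left out. Of the rest, 34945 had 1 gene symbol, 932 several (0 of them a member) and 9160 none. Names were checked against RefSeq's GRCm38.p6 gene table, where 34741 identifiers matched and 0 symbols changed.

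Reactive minus non-reactive was fitted on all 6 arrays and 45037 probe sets with limma 3.58.1 (lmFit, eBayes; R 4.3.3), two-sided, without covariates, with Benjamini-Hochberg adjustment and a threshold of 0.05. Intervals have a level of 95%. A gene was represented by its brightest probe set. Every member was named; from each pathway list all genes past the threshold and the 2 brightest others were named, from each marker list all past the threshold, and for each member the 2 nearest profiles. Members and lists were chosen with earlier results of these data known. Alternatives were another quantile normalisation, median centring, eBayes with trend and robust, array weights, a filter on dim probe sets, leaving out the suffixes _x_at, _s_at and _a_at, averaging a gene's probe sets, the replicate number as a block, and each array left out. The fit was tested on simulated data. Arrays carry no read depth; their number limits the precision. No 2 arrays were identical.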

Additional observations from a re-analysis of the deposited data

How the results depend on the processing

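All 9 representative probe sets kept their direction under every alternative that gave a value. Mertk passed in 6 of 14 alternatives (limma adjusted p 0.0317 to 0.168) and Mfge8 in 6 of 13 (0.0253 to 0.142). Beside the fits without 1 array, Mertk lost its call with trend and robust moderation (-1.74, adjusted p = 0.0545) and both lost it with the replicate block (-1.74 and -2.13). Without 1 array the values ran from -1.95 to -1.58 for Mertk and from -2.34 to -1.92 for Mfge8. The count of members that fell was 1 with trend and robust moderation and 1 without cross-hybridising suffixes, where Mfge8 was not tested. It was 0 with the block (limma, 4 lower and 1 higher at an unadjusted p under 0.05) and 0 in each fit without 1 array (3 to 5 lower and 0 to 2 higher). Over the whole array, 275 of 45037 probe sets passed with trend and robust moderation and 262 of 36082 without the suffixes. At an unadjusted p under 0.05 with limma, there were 5128 of 45037 with the block and 4162 to 6354 without 1 array. In the pathway lists, 0 genes fell without the suffixes (limma, 2 lower at an unadjusted p under 0.05), and 0 fell and 0 rose with the block (4 and 14 at an unadjusted p under 0.05). Without 1 array 0 to 1 fell and 0 to 3 rose; the lists had 0 calls without any 1 of the non-reactive arrays (limma, 4 to 5 lower and 11 to 14 higher at an unadjusted p under 0.05). Without reactive replicate 3 the median difference of the phosphatidylserine exposure list went from 0.20 to -0.05 and that of the inhibitory signals from 0.39 to 0.13. The reversed values were all from dim or secondary probe sets that never passed: Axl 1438621_x_at at -0.0697 with quantile normalisation and between -0.23 and 0.35 when an array was left out, Tyro3 1425249_a_at between -0.20 and 0.47, and Gulp1 1434423_at between -0.32 and 0.47, also when an array was left out. Axl turned without non-reactive replicate 1, Tyro3 without reactive replicate 3 or non-reactive replicate 1, and Gulp1 without reactive replicate 2 or non-reactive replicate 3. The cause was not tested.

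The replicate numbers were not said to pair samples. Same-numbered arrays deviated from their group means with correlations of -0.07, -0.11 and 0.04, and arrays of unlike number with -0.11 to 0.19. With 3 arrays a group, these values cannot decide whether same-numbered arrays share more than a number. With the block 1 probe set of the whole array was called, against 383 without it. Signal limits what can be read for Cd36, Gulp1 and the secondary probe sets, whose values lie near or below the median probe set.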
